A study of Mus musculus with 6 samples.

Results

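The genes described here encode VPS33B, its partner VIPAS39 and the subunits of the HOPS and CORVET tethering complexes. They were chosen by name as a list of 10 genes, Vps33b, Vipas39, Vps33a, Vps16, Vps11, Vps18, Vps39, Vps41, Vps8 and Tgfbrap1, and all 10 were found among the 32285 features of the count table and passed the filter on low counts. The RNA came from cDC1s, or conventional dendritic cells of type 1, a subset known for showing antigen taken up from other cells to CD8 T cells. They were isolated by cell sorting from lymph nodes labelled mLN of C57BL/6 mice, all of which had been given 50 µg of house dust mite extract (HDM) through the nose 24 h before. One group was wild type (WT, 3 libraries). The other carried the genotype labelled Vps33BdeltaDC, a conditional knock-out of Vps33b (KO, 3 libraries). The labels name neither the Cre driver nor the deleted exons, and do not give the age of the mice, whether mice were pooled for a library, or whether the WT mice carried a floxed allele. None of the 6 libraries came from mice without HDM. Separate animals are not stated for the libraries within each group. Each p-value thus measures only the spread between these libraries, which may be technical.

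Tethering complexes bridge a vesicle or endosome to its target membrane before SNARE proteins fuse the membranes. HOPS acts on late endosomes, lysosomes and autophagosomes together with the GTPase RAB7, and CORVET acts on early endosomes together with RAB5. Both are built on a shared core of VPS11, VPS16, VPS18 and VPS33A, to which HOPS adds VPS39 and VPS41, and CORVET adds VPS8 and TGFBRAP1. VPS33A is a Sec1/Munc18 protein, a class that holds SNAREs during assembly, and it sits in the core through VPS16. VPS33B is its paralog and pairs with VIPAS39, a relative of VPS16, in a separate unit often called CHEVI. Mutations of either CHEVI gene in humans cause ARC syndrome, a disorder of protein sorting to membranes. In dendritic cells, fusion of endosomes and phagosomes with lysosomes bears on how captured antigen is degraded and loaded.

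Of the 10 genes, 7 had a promoter entry in RefSeq sequence (GRCm38.p6), in 9 windows of 300 bases around a start. Vps33b, Vps11 and Vps39 were not matched. Of these windows, 2 hold the 8-base palindrome TCACGTGA, the core of the CLEAR element found at many lysosomal genes, and they are shown for that reason with the palindrome in capitals. Both belong to the core pair that carries the Sec1/Munc18 protein, VPS16 and VPS33A. Each stretch is printed 5′ to 3′ on the gene's own strand and ends at the last base before the annotated start, Vps16 at chr2:130424251-130424319 on the plus strand and Vps33a at chr5:123573016-123573094 on the minus strand.
Vps16: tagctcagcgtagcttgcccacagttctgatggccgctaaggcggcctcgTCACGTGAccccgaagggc
Vps33a: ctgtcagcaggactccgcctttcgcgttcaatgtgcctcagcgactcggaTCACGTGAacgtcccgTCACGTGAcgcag
The palindrome began 19 bases before the start of Vps16, and 29 and 13 bases before that of Vps33a. It was present in 0.974% of the 32851 promoter windows of the same length. The shorter E-box CACGTG, which lies inside the palindrome, was in 3 of the 9 windows and in 7.15% of all windows. The third of these was an alternative start of Tgfbrap1, where the E-box began at the last base before the start. Other motifs searched on both strands were TGACGTCA, the cAMP response element, and the NRF1 motif, with 0 of 9 windows each and 1.79% and 0.971% of all windows. The ETS motif CTTCCGG was in the Vps18 window alone of the 9, and in 8.86% of all windows. The CCAAT-box letters ATTGG were in 0 of 9 and 37.4% of all. These matches describe letters in a window and were not tested against any value.

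The paralogs differ enough in sequence that long stretches were not shared. The longest identical run between the longest coding transcripts of Vps33b and Vps33a was 13 bases, aacatgaagtgga, at bases 514 to 526 of the Vps33b transcript and 227 to 239 of the Vps33a transcript, inside the coding part of both. The longest run was also 13 bases between Vps39 and Tgfbrap1, 12 between Vps41 and Vps8 and 14 between Vps11 and Vps18. No stretch of 31 bases was shared by any pair of the 10 genes. The share of each gene's 31-base stretches that also occurred in transcripts of genes outside the list ran from 0% for Vps41 to 6.87% for Vps33b and 9.80% for Vps8. Exons of Vps16 overlapped for 2.93% of their length with Pced1a on the opposite strand, and those of Tgfbrap1 2.79% with opposite-strand genes, and the other 8 genes shared none. No source used here says whether the counting used strand, so the counts of Vps16 and Tgfbrap1 are uncertain to that extent.

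Library totals ran from 11755944 to 18450678 counts. Markers of cDC1s summed to between 7449.5 and 8624 CPM (counts scaled to the TMM-adjusted library total) over the 6 libraries, with all 12 markers detected. Most of this sum was Ccr7, a receptor of mature dendritic cells in general, at 4365 to 5469 CPM. Irf8 and Batf3, transcription factors of the cDC1 lineage, were at 1244 to 1741 and 124 to 176 CPM with overlapping groups. Of the 12 markers 9 had a negative log2 fold change of KO over WT, and 3 had groups that did not overlap, all with KO lower, which 5.19% of all genes tested were. These were the surface receptor Xcr1 (13.1 to 44.6 CPM in WT, 5.72 to 11.4 CPM in KO), Wdfy4 of cross-presentation (66.9 to 111 and 33.3 to 58.3 CPM) and the integrin Itgax (131 to 160 and 82.2 to 122 CPM). Clec9a overlapped, at 61.9 to 85.5 CPM in WT and 50.8 to 66.4 CPM in KO. Of the 12 cDC1 markers, these 4 were also those with an unadjusted p under 0.05, and none passed the edgeR adjusted threshold. Markers of other cells summed to 9.85 to 30.2 CPM for 4 B-cell genes, 12.6 to 28.6 CPM for 4 T-cell genes and 0.701 to 2.09 CPM for 2 NK-cell genes. The 3 genes of plasmacytoid dendritic cells summed to 11.7, 12.2 and 28.6 CPM in WT and to 8.62, 3.68 and 8.56 CPM in KO, so that all KO sums were below all WT sums. The 3 neutrophil genes summed to 0.676 to 5.29 CPM. The 6 monocyte and macrophage genes summed to 158 to 291 CPM in WT. In KO they summed to 155, 148 and 577 CPM, so that KO replicate 3 stood apart, and the sum of 4 markers of type 2 dendritic cells lay between 97.2 and 157 CPM for WT and between 124 and 216 CPM for KO. Of the 6 monocyte and macrophage genes, 3 lay above 0 and 3 below, and 1, Cd14, had groups that did not overlap. Cd14 was at 14.9 to 28.4 CPM in WT and 3.48 to 10.6 CPM in KO. Its log2 fold change was -1.75 ± 0.41, with an edgeR adjusted p of 0.834. No marker was at 0 in all libraries. The part of these transcripts in any value below was not tested.

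The comparison of KO with WT asks how loss of Vps33b is reflected in the transcripts of its own complex and of the related tethers. Vps33b was counted less often in each KO library than in each WT library, while for each of the other 9 genes the KO and WT values overlapped. The targeted gene (ENSMUSG00000030534) lies on chromosome 7, 80269649 to 80291754, plus strand, mm10. It had 295, 283 and 260 counts in WT replicates 1 to 3 and 69, 120 and 94 counts in the KO libraries. On the scale of CPM the WT libraries had 16.2, 19.1 and 13.8 CPM, and the KO libraries 5.0, 7.01 and 8.29 CPM. The lowest WT library was thus above the highest KO library, and KO replicate 1 was the lowest of all. Xcr1, Wdfy4, Itgax, Cd14 and the plasmacytoid sum, given above, separated the libraries in the same direction, and their part in the Vps33b value was not tested. KO libraries retained 41.3% of the mean WT level. The log2 fold change was -1.28 ± 0.27 (SE), which is a fold of 0.413 with a 95% interval of 0.274 to 0.622. The edgeR quasi-likelihood p was 0.000567 for this gene alone and 0.834 after Benjamini-Hochberg adjustment over 12568 genes. By an exact two-sided permutation test of log2 CPM, p was 0.1, which is the lowest result possible with 3 libraries a group. With DESeq2 the adjusted p was 0.0506.

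**Figure D1:**
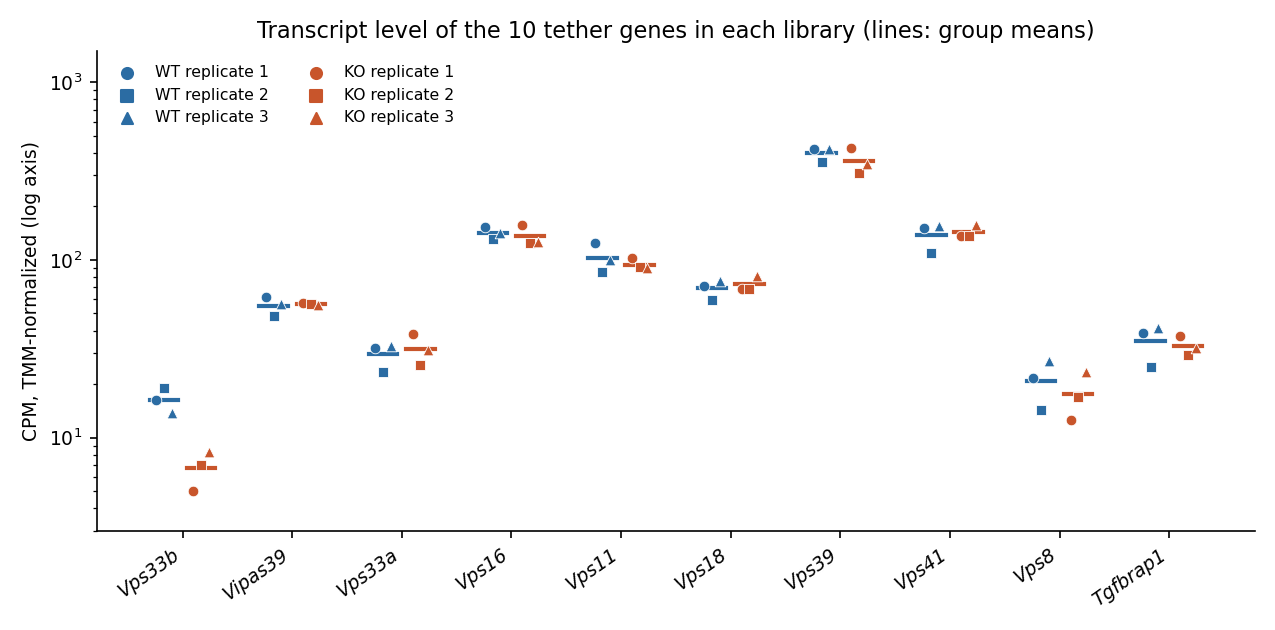
CPM of each tether gene on a log axis, with 1 point per library (blue WT, orange KO; circles, squares and triangles are replicates 1, 2 and 3) and lines at the group means. The KO points of Vps33b, 5.0 to 8.29 CPM, all lie below its WT points, 13.8 to 19.1 CPM, and the points of the other 9 genes overlap between groups.

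Reads from exons that remain after the deletion would be counted for Vps33b, and counts from cells in which the allele was not deleted would be too. The table gives 1 total per gene, so these cannot be told apart, nor can fewer cells carrying the transcript be told apart from less transcript per cell. Across all genes tested, 0 passed the edgeR adjusted threshold of 0.05 (0%), while limma-voom called 0 and DESeq2 called 10. Before adjustment, 725 genes (5.77%) had a p under 0.05, and those lower in KO made up 3.06% of all genes. Vps33b was the 1 tether gene of 10 in that set. It was also the 1 of 10 whose groups did not overlap, where 10.6% of all genes did not overlap and 5.19% did so with KO lower.

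None of the 5 tested genes beside Vps33b on the chromosome had groups that separated as those of Vps33b did. Ngrn, which ends 4274 bases before Vps33b and encodes a mitochondrial protein, averaged 19.9 ± 0.94 CPM for WT and 21.9 ± 4.95 CPM for KO (SD, n = 3 each). Rccd1, 1474 bases beyond its end on the opposite strand, averaged 9.36 ± 1.72 and 8.61 ± 1.24 CPM, and Unc45a, a myosin chaperone gene, at 36.4 ± 2.70 and 33.0 ± 4.14 CPM. Prc1, a midzone protein of dividing cells, starts 2695 bases beyond Vps33b and was low, with 2.47, 4.33 and 1.11 CPM for WT and 0, 0.41 and 2.47 CPM for KO, a log2 difference of -1.59 ± 0.87 with overlap. Gdpgp1 was at 1.12 ± 0.64 and 1.62 ± 0.40 CPM, and Ttll13 was not tested, with counts in 1 KO library only.

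For Vipas39, which encodes the partner that VPS33B binds, the KO libraries lay inside the range of WT. The gene (ENSMUSG00000021038, chromosome 12, 87238868 to 87266256, minus strand) had WT values of 61.7, 48.2 and 56.3 CPM and KO values of 57.6, 56.4 and 55.6 CPM. The KO values were close to each other, and the WT values were more spread. The log2 fold change was 0.03 ± 0.15, and the 95% interval of the fold ran from 0.816 to 1.27. Changes within those bounds are not excluded by these libraries. The ratio of Vps33b to Vipas39, each per length of exon, showed the same separation as Vps33b. For WT it was 0.298, 0.450 and 0.277 and for KO 0.0983, 0.141 and 0.169, and the groups did not overlap.

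Vps33a, the paralog that serves HOPS and CORVET, passed no test in either direction beside the lower Vps33b. The gene (ENSMUSG00000029434, chromosome 5, 123528659 to 123573038, minus strand) had WT values of 31.9, 23.4 and 32.8 CPM and KO values of 38.2, 25.6 and 30.96 CPM. WT replicate 2 was lowest and KO replicate 1 highest. The log2 fold change was 0.09 ± 0.21, with a 95% interval of the fold from 0.779 to 1.46, and leaving out WT replicate 2 or KO replicate 1 turned its sign (-0.05 and -0.08). Per length, the ratio of Vps33b to Vps33a was 0.701, 1.13 and 0.579 in WT and 0.181, 0.377 and 0.370 in KO. With this length, the union of annotated exons, Vps33b exceeded its paralog in WT replicate 2 alone. With the median length of coding transcripts it did so in all 3 WT libraries (1.45, 2.33 and 1.20) and in no KO library (0.373, 0.779 and 0.763). All KO ratios were below all WT ratios. A change of length scales the ratio alike in every library, so it cannot alter this separation. The KO mean ratio was 0.385 of the WT mean, and 0.483 of it without WT replicate 2.

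**Figure D2:**
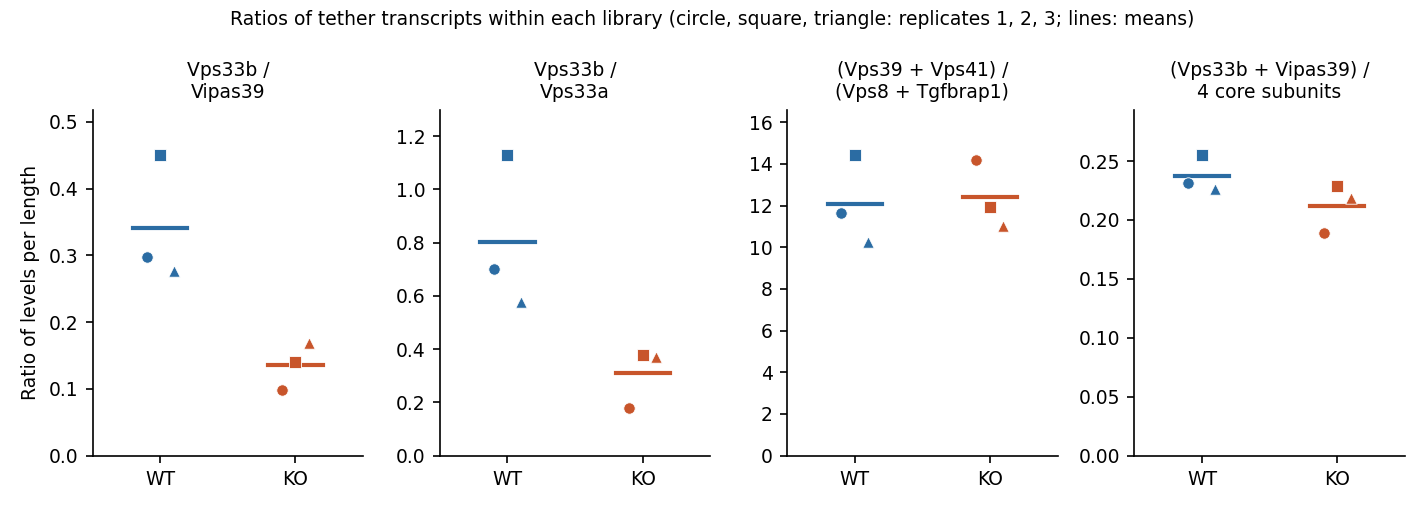
Ratios of levels per length within each library, on linear axes from 0, with 1 point per library (circle, square, triangle for replicates 1, 2, 3) and lines at the group means. Both ratios with Vps33b alone on top separate WT from KO (0.277 to 0.450 against 0.0983 to 0.169 for Vipas39), whereas the ratio of HOPS-specific to CORVET-specific subunits and that of CHEVI to the core overlap.

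The other core subunits were counted at similar levels in both groups. Vps16 (ENSMUSG00000027411, chromosome 2, 130424339 to 130444269), whose product docks VPS33A into the core, had WT values of 154, 130 and 141 CPM and KO values of 158, 125 and 126 CPM, with a log2 fold change of -0.06 ± 0.14. Both groups spanned almost the same range. Vps11 (ENSMUSG00000032127, chromosome 9, 44347749 to 44361670), a RING-domain scaffold subunit, had WT values of 124, 85.3 and 99.3 CPM and KO values of 102, 90.9 and 89.5 CPM, with a log2 fold change of -0.13 ± 0.16. WT replicate 1 was the highest and WT replicate 2 the lowest. Vps18 (ENSMUSG00000034216, chromosome 2, 119288740 to 119298453), the other RING-domain scaffold subunit, had WT values of 71.7, 59.9 and 76.5 CPM and KO values of 68.7, 68.4 and 81.5 CPM, with a log2 fold change of 0.06 ± 0.15. Its highest value was in KO replicate 3, where the monocyte genes summed to 577 CPM, and a part of those cells in this value was not tested. The edgeR adjusted p of these 3 genes lay between 0.922 and 0.960.

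The HOPS-specific subunits were abundant in both groups. Vps39 (ENSMUSG00000027291, chromosome 2, 120316461 to 120353137, minus strand), which encodes a subunit at the end of HOPS that contacts RAB GTPases, had WT values of 421, 356 and 421 CPM and KO values of 426, 308 and 344 CPM. KO replicate 1 was close to the highest WT libraries, and KO replicates 2 and 3 were below all of WT. The log2 fold change was -0.15 ± 0.15, with a 95% interval of the fold from 0.721 to 1.12. Vps41 (ENSMUSG00000041236, chromosome 13, 18717286 to 18866811), the subunit at the other end of HOPS that also has a role in secretory granules, had WT values of 150, 110 and 154 CPM and KO values of 136, 136 and 157 CPM. Its log2 fold change was 0.05 ± 0.15, and it was -0.10 without WT replicate 2, the low library.

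Of the CORVET-specific subunits, Vps8 was the most variable gene of the list. Vps8 (ENSMUSG00000033653, chromosome 16, 21423118 to 21644680), which encodes the subunit that binds RAB5, had WT values of 21.7, 14.3 and 26.9 CPM and KO values of 12.5, 16.9 and 23.5 CPM. The coefficient of variation was 30.4% in WT and 31.2% in KO, the widest of the 10 genes in either group. The log2 fold change of -0.28 ± 0.28 thus came with a 95% interval of the fold from 0.536 to 1.26. The fold of Vps33b, 0.413, lay below this interval, but the interval of Vps33b, 0.274 to 0.622, overlapped with it. A fall of Vps8 to a fold as low as 0.536 is not excluded. Tgfbrap1 (ENSMUSG00000070939, chromosome 1, 43047200 to 43098637, minus strand), the counterpart of VPS39 in CORVET, first known as a protein that associates with TGF-beta receptors, had WT values of 38.6, 25.0 and 41.3 CPM and KO values of 37.3, 29.1 and 31.9 CPM. Its log2 fold change was -0.11 ± 0.21, and it was 0.03 without WT replicate 3.

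**Figure D3:**
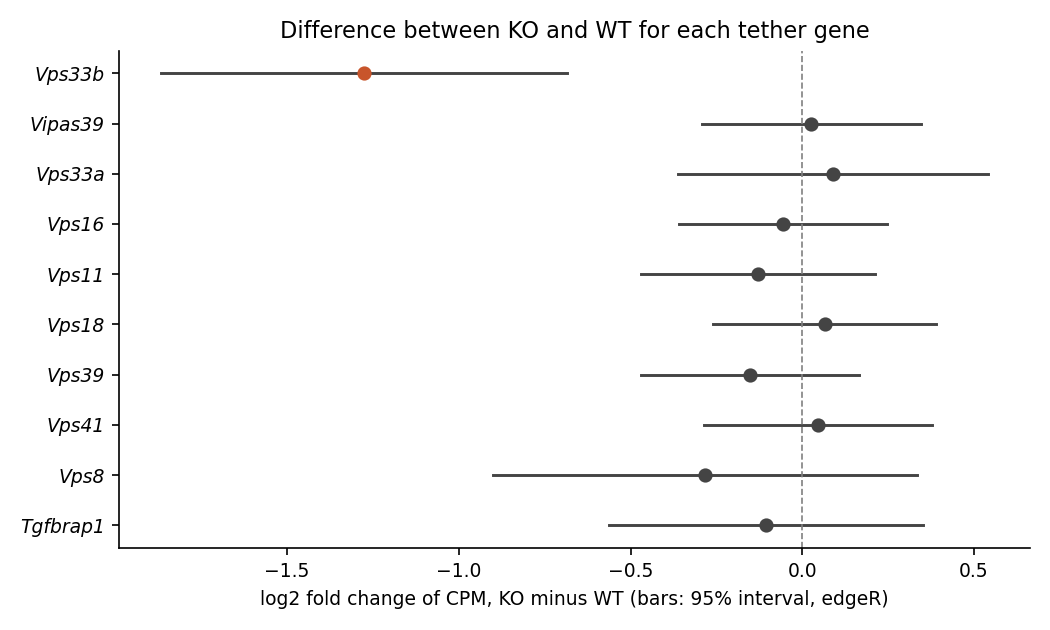
Log2 fold change of CPM, KO minus WT, for each tether gene (points), with the 95% interval from the edgeR fit (bars). The interval of Vps33b, from -1.87 to -0.69, excludes 0 before adjustment over all genes, and those of the other 9 genes include it.

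WT replicate 2 differed from WT replicates 1 and 3 in opposite ways for Vps33b and for the rest. It held the lowest WT value of all 9 other tether genes and the highest WT value of Vps33b. Among all 6 libraries it was the lowest for Vipas39, Vps33a, Vps11, Vps18, Vps41 and Tgfbrap1. The 9 genes together summed to 853 CPM there, against 1075 and 1049.5 CPM in WT replicates 1 and 3. Their KO sums were 1036, 856 and 941 CPM. KO replicate 2 was thus about as low as WT replicate 2, and it held the lowest KO value of 6 of the 9 genes. Without WT replicate 2 the log2 fold change of Vps33b was -1.16 (edgeR adjusted p = 0.745). Of the other 9 genes, 4 lay above 0 with all libraries, and all 4 of these, Vipas39, Vps33a, Vps18 and Vps41, lay below 0 without it. The median log2 fold change of the 9 genes was -0.06 with all libraries, beside 0.00 over all genes tested.

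Levels of different genes were compared per length, as counts per kilobase of exon scaled to the library sum of such values (TPM scale). In WT, Vps39 was highest at 160 ± 24.1 TPM, followed by Vps16 at 131 ± 17.9 TPM (SD, n = 3). These 2 held ranks 1 and 2 in all 6 libraries, although their WT ranges overlapped. Next came Vps11 at 71.8 ± 17.1, Vps41 at 70.9 ± 16.4, Vps18 at 49.9 ± 8.90 and Vipas39 at 48.5 ± 8.61 TPM, and each of these overlapped with its neighbour in the order. The range of Vps16 stood apart from that of Vps11. Vps33a followed at 21.2 ± 4.88 TPM, apart from Vipas39 and 2.29 times lower. Vps33b was the eighth at 16.1 ± 1.80 TPM, overlapping with Vps33a. The CORVET subunits were last, Tgfbrap1 at 11.0 ± 3.30 TPM and Vps8 at 8.77 ± 3.06 TPM. Their ranges overlapped with each other while that of Tgfbrap1 was apart from that of Vps33b. This order holds for the exon union length. With the median length of coding transcripts, Tgfbrap1 had rank 5 at 65.6 TPM, Vps18 rank 7 and Vps33a rank 9 in WT.

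In KO the order was the same except that Vps33b moved to the last place, at 6.28 ± 1.29 TPM, and that Vps41 and Vps11, which overlapped, changed places. Vps33b held rank 10 in each KO library and rank 7 or 8 in each WT library. Its KO range overlapped with that of Vps8, at 6.86 ± 1.91 TPM. Among the 12568 tested genes the WT level of Vps33b was at the percentile 49.8 and the KO level at 31.8. Vps39 was at the percentile 91.5 in WT, and Vps8 at 36.2.

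**Figure D4:**
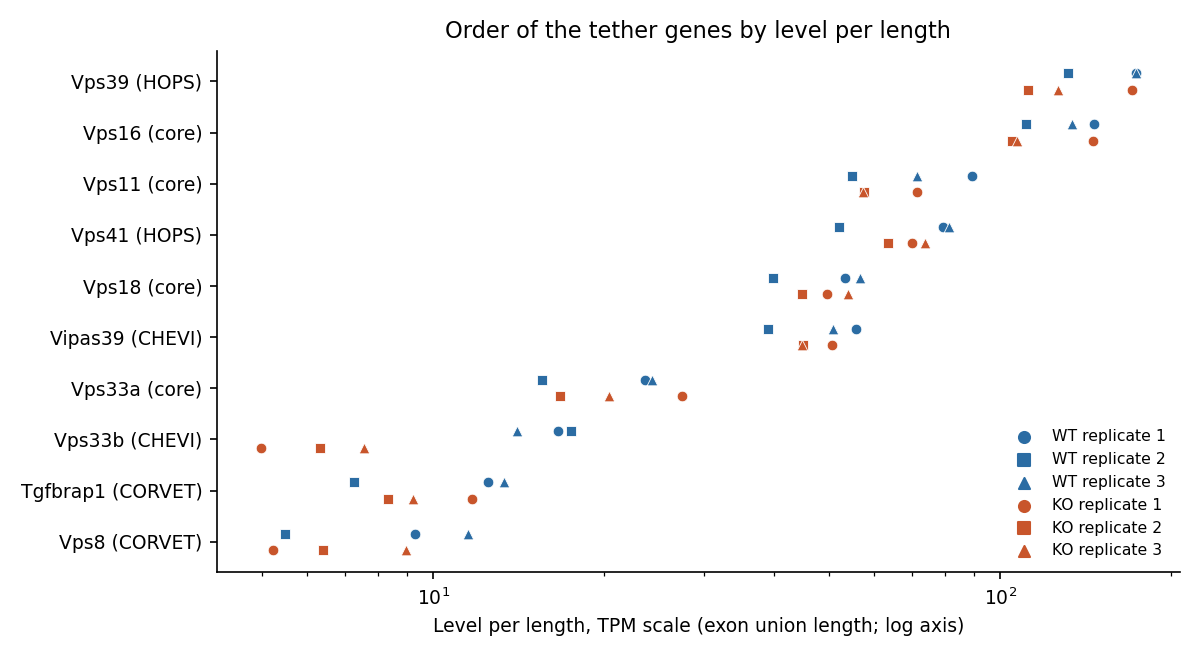
Level per length of each tether gene on the TPM scale (log axis), ordered by the WT mean, with 1 point per library (WT above, KO below). Lengths are those of the exon union, and the place of Tgfbrap1 changes with another length. Vps39 and Vps16 lie to the right above 100 TPM in all libraries, the CORVET-specific genes lie to the left, and Vps33b is the gene whose KO points (4.97 to 7.55 TPM) are all left of its WT points (14.1 to 17.5 TPM).

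The HOPS-specific transcripts outnumbered the CORVET-specific ones in every library. The sum of Vps39 and Vps41 over that of Vps8 and Tgfbrap1, per length, was 11.6, 14.4 and 10.2 in WT and 14.2, 11.9 and 11.0 in KO. The groups overlapped, with means of 12.1 ± 2.13 and 12.4 ± 1.63. The size of this ratio depends on the gene models, since it was 2.99 in WT when the median length of coding transcripts was used, where short coding models of Tgfbrap1 raised it to 65.6 TPM and the fifth place. The 2 CHEVI transcripts together made up 64.5 ± 7.91 TPM in WT and 53.0 ± 2.21 TPM in KO. Their sums did not overlap (56.5 to 72.3 against 51.3 to 55.5 TPM). This sum contains the targeted gene, with Vps33b at 16.1 TPM in WT and 6.28 TPM in KO. Vipas39 was at 48.5 and 46.7 TPM, with overlap. The 4 core subunits summed to 273 ± 46.9 and 252 ± 37.0 TPM, with overlap. The ratio of CHEVI to the core was 0.238 ± 0.015 in WT and 0.212 ± 0.021 in KO, and it overlapped between groups.

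Other genes of the pathway were read from lists chosen with earlier results of these data known, and none passed the edgeR adjusted threshold. Of 20 GTPases, effectors and exchange factors that act with the tethers, 17 had a positive log2 fold change and the median was 0.12, against 50.6% above 0 and a median of 0.00 over all genes. An unadjusted p under 0.05 was reached by 2, both with KO higher, which 2.71% of all genes were. These were Arl8b, a lysosomal GTPase that recruits HOPS through VPS41, with WT values of 85.4, 82.8 and 93.6 CPM and KO values of 105, 108 and 110 CPM (log2 fold change 0.30 ± 0.12), and Rab11a of recycling endosomes, a GTPase tied to CHEVI, with WT values of 110, 120 and 121 CPM and KO values of 124, 179 and 147 CPM (0.36 ± 0.15). Both had groups that did not overlap with KO above WT, as 5.46% of all genes did, and an edgeR adjusted p of 0.834. Of 11 tested SNARE genes 10 lay above 0, with a median of 0.16 and none under the unadjusted level. The smallest p-values were those of Ykt6 (0.37 ± 0.17) and Stx8 (0.28 ± 0.17). For both, KO replicate 1 lay inside the WT range, and KO replicates 2 and 3 lay above it. Ykt6 was at 68.6 to 85.9 CPM in WT and 78.5, 112 and 116 CPM in KO. Stx8 was at 43.6 to 51.3 CPM in WT and 44.1, 66.3 and 57.2 CPM in KO. The sign counts of the lists were not repeated with a library left out, so they may rest on single libraries. Vamp7 had 0 counts in all 6 libraries and was not tested. Whether this reflects its expression or how reads were counted cannot be told from the counts. Of the 6 other Sec1/Munc18 genes 4 lay above 0 (median 0.09), with Scfd1, which acts between the endoplasmic reticulum and Golgi, at 0.22 ± 0.16.

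Tethers of other routes gave similar counts of 0. None of the 5 GARP and EARP genes, 9 exocyst genes or 8 COG genes passed the adjusted threshold or an unadjusted p under 0.05. Groups did not overlap, with KO lower, for 1 GARP and EARP gene, Vps50, and 1 exocyst gene, Exoc6. Over all genes tested, 5.19% did so. The GARP and EARP genes, which serve transport from endosomes to the Golgi and recycling, had a median log2 fold change of 0.01, with Vps50 at -0.30 ± 0.19 and Vps51 at 0.21 ± 0.13. The exocyst genes, which serve tethering at the plasma membrane, had a median of -0.07 with 8 of 9 below 0. Of all genes tested, 50.6% lay above 0. The smallest p-values of the exocyst genes were those of Exoc6 (-0.35 ± 0.19) and Exoc1 (-0.13 ± 0.16). The COG genes of the Golgi had a median of 0.02, with Cog7 at -0.31 ± 0.18 and Cog8 at 0.17 ± 0.18. Per length, the median WT level was 49.2 TPM over the 10 tether genes described here, 31.2 TPM for GARP and EARP, 22.5 TPM for the exocyst, 39.9 TPM for COG and 16.1 TPM over all tested genes. The single genes within each complex differed by more than these medians did, from 8.77 to 160 TPM here and from 5.22 to 45.8 TPM in the exocyst.

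Genes whose pattern over the 6 libraries was most like that of Vps33b were ranked by the root mean square difference of centred log2 CPM, over the 9390 genes that averaged at least 5 CPM. The closest was Trim65, a ubiquitin ligase gene, with a difference of 0.19 on the log2 scale, with WT values of 18.4, 17.2 and 15.5 CPM and KO values of 5.50, 6.77 and 11.5 CPM. It was followed by Ppp1r12b, a myosin phosphatase subunit (0.26), Tk1, the cytosolic thymidine kinase (0.27), Plbd1 (0.28) and the tight-junction gene Ocln (0.31). Their likeness was the criterion of choice and is a description of 6 values per gene. None of the other 9 tether genes was near, with differences between 0.66 for Vps8 and 0.82 for Vps33a.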

How the data were processed

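The authors deposited raw read counts per Ensembl gene, not normalized. HISAT2 2.0.5, HTSeq and mm10 are named in the submitters' processing notes, and reads were 150 bases in pairs per the labels' protocols. No source used here gives the annotation or the strand setting. Columns were matched to samples by the library label in each description. GENCODE M21 named 32235 of 32285 features and gave positions and exon lengths.

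In R 4.3.3 with edgeR 4.0.16, genes passing filterByExpr (12568) were TMM-scaled, and KO was compared with WT by the quasi-likelihood F test (robust, current estimate), with Benjamini-Hochberg adjustment over all genes. The SE is the log2 fold change divided by the root of F, and intervals use the fit's degrees of freedom. CPM are TMM-scaled. TPM-scale levels divide counts by the union of annotated exons. The members and lists were chosen with earlier results of these data known. Genes named are the 10 members, the 3 coding genes on each side of Vps33b, the 2 genes of each list with the smallest p, and the 5 most like Vps33b (log2 CPM, prior count 2). Among the list genes, 1 that this rule selects is not reported here.

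The fit was also run on simulated counts for 12568 genes, with the spread taken from these data. Changes were planted only in genes averaging at least 5 CPM, with 50 genes for each fold. It recovered 8%, 58%, 94% and 92% of planted changes of 1.5, 2, 3 and 4 fold. These shares depend on that number of changed genes and do not cover genes at lower levels. Of 138 genes called, 12 were false. Every pair of libraries differed by more than sampling noise. Alternatives were other scalings and filters, DESeq2 1.42.0, limma-voom (limma 3.58.1), no robust estimation, the replicate block, left-out libraries and other transcript lengths. The older edgeR estimate, and leaving out libraries for levels and ratios, were chosen after seeing the data.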

Additional observations from a re-analysis of the deposited data

How the results depend on the processing

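The log2 fold change of Vps33b was negative under all 15 alternatives. It ranged from -1.30 to -1.28 with another scaling, filter, tool or estimate (adjusted p from 0.0506 to 0.914), and from -1.42 to -1.11 with 1 library left out (adjusted p from 0.196 to 1.00). The number of genes called was 0 in the main comparison, 3 without a filter and 10 with DESeq2, and between 0 and 7 with 1 library left out (7 without KO replicate 1, 1 without WT replicate 3 and 1 without KO replicate 2). At an unadjusted p under 0.05 the count ran from 376 without KO replicate 2 to 1621 without KO replicate 1. With 1 library left out, log2 fold changes ran from -0.067 (without WT replicate 2) to 0.112 for Vipas39, from -0.077 (without KO replicate 1, and -0.049 without WT replicate 2) to 0.220 for Vps33a, from -0.176 to 0.0065 (without WT replicate 1) for Vps16, from -0.252 to 0.027 (without WT replicate 1) for Vps11, from -0.035 (without WT replicate 2, and -0.025 without KO replicate 3) to 0.141 for Vps18, from -0.0997 (without WT replicate 2, and -0.030 without KO replicate 3) to 0.132 for Vps41 and from -0.295 to 0.030 (without WT replicate 3) for Tgfbrap1, so the sign of each of these 7 genes rests on single libraries. The cause was not tested. Vps39 and Vps8 were below 0 in all 15, but with 1 library left out their values ran from -0.294 (without KO replicate 1, unadjusted p = 0.0433, adjusted p = 0.388) to -0.0638 (without KO replicate 2) for Vps39 and from -0.519 (without KO replicate 3) to -0.0612 (without WT replicate 3) for Vps8. Over all genes tested, same-numbered libraries did not deviate together (correlations of 0.005, 0.028 and -0.001). Deviations from means of 3 libraries cannot show whether the replicate numbers pair the samples. With the replicate block Vps33b was at -1.30 (adjusted p = 0.659), and 0 genes were called. The count at an unadjusted p under 0.05 was then 942, beside 725 in the main comparison. The SE of each tether gene other than Vps33b was lower with the block (0.1045 beside 0.1452 for Vps39), and that of Vps33b was 0.27 both ways. Vps33b had 69 to 295 counts a library and Vps8 173 to 509, with an SE of 0.27 and 0.28, and the parts of counting error and of the spread between libraries in these errors were not separated.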

Other observations

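Uvrag, chosen after its values were seen, encodes a protein that binds the class C core and takes part in endosome maturation and autophagy. WT libraries had 412.5, 412 and 445 CPM and KO libraries 367, 352 and 393 CPM, and the log2 fold change was -0.19 ± 0.12 with non-overlapping groups and an edgeR adjusted p of 0.853. It was the 1 gene of the 20 GTPases, effectors and exchange factors with non-overlapping groups and a lower KO, beside 3 with a higher KO. Over all genes tested, 5.19% did not overlap with KO lower and 5.46% with KO higher, so 1 of 20 is the background share. The third of these was Rabep1, a RAB5 effector, also chosen after its values were seen, averaging 95.5 ± 2.57 CPM for WT and 103 ± 6.72 CPM for KO. The transcript of Rilp, a RAB7 effector that binds HOPS, was at 0.934 to 2.64 CPM over the 6 libraries, far below Rab7 itself at 356 to 459 CPM, both also chosen after their values were seen and given on the CPM scale, which does not correct for length.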
